A study of Caenorhabditis elegans with 2 samples.

Results

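NPAX-4 chromatin immunoprecipitation in Caenorhabditis elegans late embryos gave 1529 X chromosome regions away from small RNA genes. They are the X regions of the authors' relaxed list made from both replicates together, with the strongest of overlapping regions kept and a summit more than 500 bp from every annotated tRNA, snoRNA, snRNA, miRNA and piRNA gene. They made up 1529 of the 1689 X regions and of the 11555 regions of the reduced list, which held 12454 regions as deposited. Of the 1529 regions, 17 overlapped the list that passed the irreproducible discovery rate (IDR) procedure, which uses reproducibility between replicates. That list equals the 354 regions of highest signal in the relaxed list. Being on it therefore follows joint signal and does not show that a region was reproducible by itself. Of the 17, 5 were among the 354 highest regions of both replicates and 1 among those of neither. These 17 are termed called, and the other 1512 uncalled. The authors label the relaxed list as peaks and background for the IDR procedure. Uncalled regions may therefore be background, and results over all 1529 regions are not to be read as NPAX-4 binding.

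The animals were hermaphrodites of strain OP493, which carries unc-119(tm4063) III and the transgene wgIs493, the latter encoding NPAX-4 fused to eGFP. Whole late embryos were taken 4 h after synchronization by egg bleaching, in 2 biological replicates, and sonicated chromatin was precipitated with an antibody to GFP. All libraries therefore share the same transgene and the same unc-119 mutation, and every value comes from all embryonic cells mixed. Signal is the authors' value for each region, on a scale not given in the sources used here, and since no read counts were used the depth is unknown.

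NPAX-4 belongs to a nematode family of proteins with a paired domain, the DNA-binding domain of the Pax transcription factors. In C. elegans hermaphrodites the dosage compensation complex, which contains a condensin, binds both X chromosomes and lowers their transcription. It is loaded at recruitment sites on X that carry a DNA sequence called MEX (motif enriched on X), from which it spreads along the chromosome.

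Called regions of X were of several kinds. The summits of 8 lay at promoters, defined as the stretch from 500 bp before to 100 bp after the 5′ end of a protein-coding gene. The windows of 5 others held GCGCAGGG, the core of the MEX motif, and none of these 5 lay at a promoter. The remaining 4 had neither feature, and 2 of those had windows made up mostly of repeated sequence. Windows were 151 bases long, 75 on each side of the summit.

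The motif sites in the 5 called regions are shown first, followed by those in the 3 uncalled motif regions of highest signal. Each is read 5′ to 3′ on the strand that reads GCGCAGGG, with the core in capitals and 6 bases on each side, in ce11 coordinates and from the RefSeq copy of the same assembly (WBcel235).
F20B6.9 upstream, chrX:4209260-4209279, minus strand: gctatcGCGCAGGGacacct
mom-1 intron, chrX:6296542-6296561, plus strand: catttgGCGCAGGGggtcac
mom-1 intron, chrX:6296570-6296589, plus strand: ggtatcGCGCAGGGaagatt
T26C11.3 pseudogene, chrX:1837886-1837905, plus strand: tcggccGCGCAGGGcacgga
W02H3.3 downstream, chrX:11094119-11094138, minus strand: tatatcGCGCAGGGagctta
W02H3.3 downstream, chrX:11094220-11094239, minus strand: ccattcGCGCAGGGacacct
Y41G9A.17 intron, chrX:2997117-2997136, minus strand: tttatcGCGCAGGGaggaag
F22H10.2 neighbour, chrX:16682166-16682185, minus strand: aacatcGCGCAGGGaacatc
gtr-1 neighbour, chrX:806668-806687, plus strand: attatcGCGCAGGGgtgttt
gtr-1 neighbour, chrX:806744-806763, plus strand: cgatacGCGCAGGGaaaaaa
nspc-17 neighbour, chrX:14525894-14525913, minus strand: cctatcGCGCAGGGacagat
Over all 16 sites in 13 X windows, the base just before the core was most often C, in 11 of 16, and the base before that was T in 12 of 16. The base just after the core was A in 10 of 16. The 2 sites of the W02H3.3 region and the 2 of the mom-1 region lay within a single window each.

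Whole windows are shown for 6 called regions of contrasting kinds. The first, upstream of T13C5.6, had the highest signal on X; capitals mark GGTTCAA, a form of the B box core of tRNA genes written GGTTCNA. In the window of F59C12.4 capitals mark the same element on the other strand, and in the mom-1 intron they mark the 2 MEX cores. The windows upstream of gly-13 and near C24H10.4 and F18E9.1 carry no marked motif and stand for a promoter and for repeats.
T13C5.6 promoter, chrX:6207813-6207963, plus strand: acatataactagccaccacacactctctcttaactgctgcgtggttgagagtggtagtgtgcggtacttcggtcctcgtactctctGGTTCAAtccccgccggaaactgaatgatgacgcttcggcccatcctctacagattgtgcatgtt
F59C12.4 promoter, chrX:16602612-16602762, plus strand: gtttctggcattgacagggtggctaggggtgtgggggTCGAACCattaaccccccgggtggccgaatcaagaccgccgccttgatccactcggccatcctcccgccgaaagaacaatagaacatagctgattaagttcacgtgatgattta
mom-1 intron, chrX:6296460-6296610, plus strand: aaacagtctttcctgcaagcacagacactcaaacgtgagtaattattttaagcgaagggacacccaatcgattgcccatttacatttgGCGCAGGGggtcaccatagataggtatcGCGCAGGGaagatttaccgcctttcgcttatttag
gly-13 promoter, chrX:9296748-9296898, plus strand: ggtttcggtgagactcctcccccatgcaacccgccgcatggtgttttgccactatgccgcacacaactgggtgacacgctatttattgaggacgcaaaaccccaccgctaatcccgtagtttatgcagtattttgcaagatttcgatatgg
C24H10.4 neighbour, chrX:5056342-5056492, plus strand: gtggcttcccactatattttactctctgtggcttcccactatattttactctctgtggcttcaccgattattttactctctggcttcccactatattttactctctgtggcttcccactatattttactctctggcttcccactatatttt
F18E9.1 neighbour, chrX:8603152-8603302, plus strand: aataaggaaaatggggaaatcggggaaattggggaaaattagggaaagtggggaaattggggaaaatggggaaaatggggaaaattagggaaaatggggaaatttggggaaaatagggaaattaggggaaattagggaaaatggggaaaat

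The region upstream of T13C5.6, at chrX:6207663-6208112, stood apart. Its signal was 279 in the joint list, 139 in replicate 1 and 143 in replicate 2, and it ranked 17 in each replicate list. The next region had 112 in the joint list. RefSeq describes T13C5.6 as a protein with a phosphatidic acid phosphatase type 2 domain, and the summit lay 201 bp upstream of its 5′ end. The summit also lay inside the annotated ncRNA gene C14F11.14, and the nearest gene of the small RNA classes used in the rule, a tRNA gene, was 12182 bp away. The 31 central bases occur at 2 places in the genome, both on X. The other copy, in the ncRNA gene K02D3.5 at chrX:13697710-13697740, overlapped no region of the joint list. Reads that match both copies could have been placed at either, and how such reads were treated is not given in the sources used here.

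Windows were also compared with annotated tRNA genes by the longest stretch of bases shared exactly on either strand. The T13C5.6 window shared 15 bases and the F59C12.4 window 14. The other 15 called windows shared 9 to 11. Among uncalled windows the median was 9, the 95th percentile 11 and the highest 16. No called summit lay within 500 bp of a tRNA pseudogene in the RefSeq annotation. GGTTCNA, looked for on both strands and chosen after the data were seen, was in 4 of 17 called windows (23.5%, exact Clopper-Pearson 95% interval 6.81 to 49.9) and in 51 of 1512 uncalled windows (3.37%, 2.52 to 4.41). On the autosomes it was in 4 of 130 called windows (3.08%, 0.845 to 7.69) and 437 of 9027 uncalled ones (4.84%). The 4 called X windows were those of T13C5.6, F59C12.4, serp-1.1 and the T26C11.3 pseudogene, the last also a MEX core window. GGTTCGA, the stricter form on the planned list of motifs, was in 2 of 17 called X windows (11.8%, 1.46 to 36.4). It was in 8 of 1512 uncalled X windows (0.529%). On the autosomes GGTTCGA was in 2 of 130 called windows (1.54%) and 125 of 9027 uncalled ones (1.38%). All such intervals describe counting error over regions only.

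**Figure D1:**
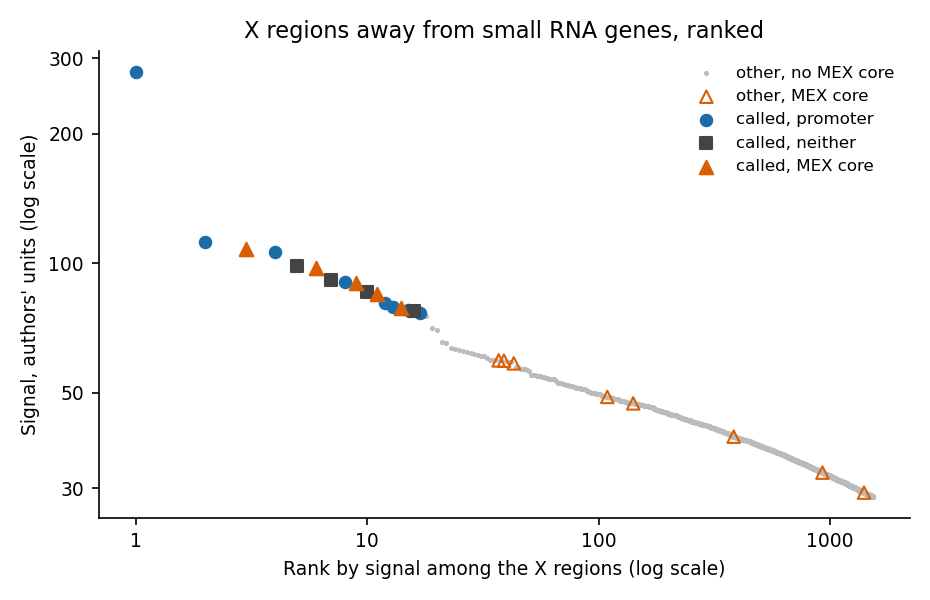
Signal in the joint list against rank for the 1529 X regions, both on log scales; filled symbols are the 17 called regions and triangles are the 13 regions whose window holds the MEX core. The T13C5.6 region stands alone at 279, and 10 of the 13 triangles lie among the 150 regions of highest signal.

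The called share of X was below that of the autosomes, but not by more than its error. On X 17 of 1529 regions were called, or 1.11% (0.649 to 1.77), against a background of 1.38% over all 10686 nuclear regions chosen in the same way. On the autosomes 130 of 9157 were called, or 1.42% (1.19 to 1.68). Single autosomes ranged from 1.17% on II to 1.74% on III. The odds ratio for X over autosomes was 0.800 (95% interval 0.468 to 1.29, adjusted p = 0.371, Firth logistic regression, two-sided, n = 10686 regions, adjusted over 5 results), so a difference was not shown with the full list. The lower share on X passed under a pair of alternatives. With called regions taken from replicate 1 alone the odds ratio was 0.563 (0.320 to 0.921, an adjusted p of 0.0258). With the upper part of the IDR list, which kept 1 call on X, it was 0.164 (0.0186 to 0.603, an adjusted p of 0.00479). With called regions taken from replicate 2 alone it was 0.815 and did not pass. For comparison, 60 of the 160 X regions within 500 bp of a small RNA gene were called (37.5%), and none of those 160 windows held the MEX core. The core was also rare among the 1529 X regions away from such genes, in 13 windows (0.850%). With so low a share, 160 windows are too few to show a difference, and none was tested.

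The call follows signal by construction, since the IDR list equals the top 354 of the joint list by signal, so no test of signal between called and uncalled regions is given. The called X regions ran from 76.8 to 279, with a median of 89.8, and the uncalled ones from 28.7 to 75.5, with a median of 34.1. Just inside the limit were F59C12.4 at 76.8, nhr-17 at 77.5, kin-29 at 77.8, the Y41G9A.17 intron at 78.8 and serp-1.1 at 79.1. Just outside were a summit in an intron of kin-20, a casein kinase, at 75.5, F17H10.1 at 70.8 and ZK816.3 at 70.0. The region 6181 bp from C30E1.4 had 65.8 and a summit in an intron of ZK470.2 had 65.1. The latter lay 5904 bp upstream of ZK470.4, its nearest coding 5′ end. Of these uncalled regions, the kin-20 summit also lay inside the ncRNA gene F46F2.12. The ZK816.3 summit lay inside the ncRNA genes ZK816.8 and ZK816.9, and the C30E1.4 summit inside C30E1.9. F17H10.1 and ZK816.3 regions lay at promoters, and none of these 5 windows held the MEX core. A summit inside a gene of biotype ncRNA, lincRNA, antisense RNA, rRNA or pseudogene was found for 3 of 17 called X regions (17.6%, 3.80 to 43.4). It was found for 76 of 1512 uncalled X regions (5.03%, 3.98 to 6.25).

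Among the 8 called promoter regions, signal was 76.8 to 279 and every summit lay upstream of the 5′ end. The region 499 bp upstream of ftt-2, which encodes a 14-3-3 protein, had 112 in the joint list, 65.2 in replicate 1 and 48.7 in replicate 2. Its summit lay inside the ncRNA gene F52D10.7. The region 201 bp upstream of gly-13, which encodes an N-acetylglucosaminyltransferase of N-glycan synthesis, had 106, 61.9 and 51.7 in the same order. The region 170 bp upstream of mans-3, an alpha-mannosidase gene, had 90.6, 65.1 and 23.4. Its rank was 144 in replicate 1 and 2493 in replicate 2, the widest gap of the promoter group.

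The other called promoters were closer to the limit. C14A11.9, annotated in RefSeq as a DASH complex subunit, had a summit 209 bp upstream with 81.0 in the joint list, 45.5 in replicate 1 and 34.2 in replicate 2. The region 267 bp upstream of serp-1.1, which RefSeq annotates as a stress-associated endoplasmic reticulum protein, had 79.1, 49.0 and 26.0. Its window was the richest in GC of the 17, at 62.3%. The region 206 bp upstream of kin-29, a serine/threonine kinase gene of the salt-inducible kinase family, had 77.8, 46.9 and 26.2. The region 65 bp upstream of F59C12.4, an uncharacterized gene, had 76.8, 34.4 and 31.2. Of the 8, 7 were among the 354 highest regions of replicate 1 and 3 among those of replicate 2, so the promoter calls stood higher in the first library.

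Promoter position was more frequent among called than uncalled X regions. It held for 8 of 17 called regions (47.1%, 23.0 to 72.2) and for 228 of 1512 uncalled regions (15.1%, 13.3 to 17), an odds ratio of 5.03 (1.93 to 12.9, adjusted p = 0.00355, Firth logistic regression, n = 1529 regions). With regions called from replicate 2 alone the odds ratio was 1.62 (0.50 to 4.23) and did not pass, and with replicate 1 alone it was 10.1. The upper part of the IDR list left 1 called region on X, and its odds ratio of 16.5 did not pass either. Of the 17 called summits 0 lay in a coding exon or a UTR, which allows a share of up to 17.6%. Uncalled shares of 9.59% (145 of 1512) and 4.70% (71 of 1512) lie below that limit, so no difference was detectable. Regions share libraries and are not independent samples. These p-values treat regions as independent and hold nothing of the variation between the libraries.

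On the autosomes promoter position went with calls more steeply. There 98 of 130 called regions lay at promoters (75.4%, 67.1 to 82.5) and 1529 of 9027 uncalled ones (16.9%), an odds ratio of 14.9 (10.1 to 22.5). The odds ratio on X divided by that on autosomes was 0.339 (0.120 to 0.941, adjusted p = 0.0475, Firth logistic regression with an interaction term, n = 10686 regions). That difference rested on few regions. It was 0.714 (0.218 to 2.64, adjusted p = 0.594, n = 10669 regions) without windows holding the MEX core, an alternative chosen after seeing the data, and 1.03 with replicate 1 alone. It was 0.122 with replicate 2 alone, which passed. At 250 bp and 1000 bp from small RNA genes it was 0.352 and 0.343, with adjusted p-values of 0.0560 and 0.0502.

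**Figure D2:**
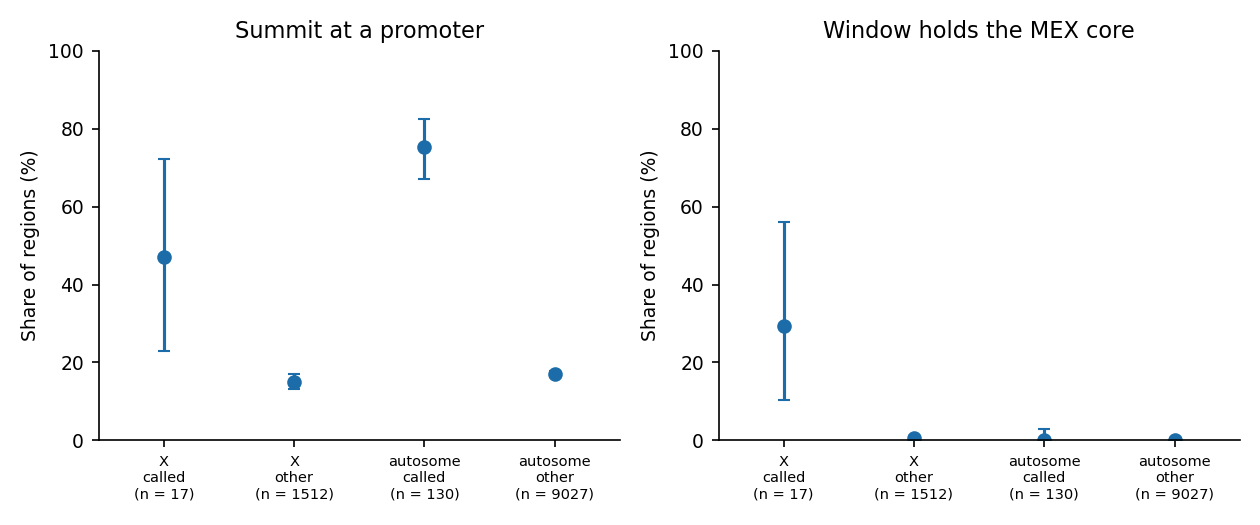
Share of regions, in percent, with a summit at a promoter (left) and with the MEX core in the window (right), for called and uncalled regions of X and of the autosomes; points are shares and bars exact Clopper-Pearson 95% intervals. Promoter shares of called regions are 47.1% on X and 75.4% on autosomes, and MEX core shares are 29.4% and 0%.

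The 5 called regions with the MEX core were intergenic or intronic. The strongest, at chrX:4209080-4209529 and 1820 bp upstream of the uncharacterized gene F20B6.9, had 108 in the joint list, 60.1 in replicate 1 and 47.0 in replicate 2. The region in an intron of mom-1, which encodes the Porcupine acyltransferase needed to make secreted Wnt proteins, had 97.3, 51.4 and 36.4. Its nearest coding 5′ end, that of cest-16, lay 3407 bp from the summit. Both cores of the mom-1 region lay downstream of the summit, with their middles 17 and 45 bp away on the X coordinate. The region inside the pseudogene T26C11.3 had 89.8, 51.1 and 38.0. Its summit lay inside the core, 2 bp from the middle of it. The T26C11.3 window also held GGTTCNA, so it counts among the called windows with either motif.

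The remaining pair were weaker in replicate 1. The region 4018 bp from the 5′ end of W02H3.3 had 84.8 in the joint list, 29.1 in replicate 1 and 54.8 in replicate 2, with ranks of 1565 and 192. The region in an intron of Y41G9A.17 had 78.8, 38.6 and 42.0. The middles of the W02H3.3 cores lay at -39 and 62 bp from the summit on the X coordinate. Those of the Y41G9A.17 and F20B6.9 cores lay at 34 and -35 bp from their summits. Of the 5, 3 were among the 354 highest regions of replicate 1 and 3 among those of replicate 2. Their GC content had a median of 45.7%, against 51.0% for the 8 promoter regions.

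The MEX core was in 5 of 17 called X windows (29.4%, 10.3 to 56.0) and in 8 of 1512 uncalled X windows (0.529%, 0.229 to 1.04). On the autosomes it was in 0 of 130 called windows, which allows a share of up to 2.31% by the limit of 3 counts and 2.80% by the exact interval, and in 4 of 9027 uncalled windows (0.0443%). The share over all X regions was 13 of 1529 windows. These shares were counted on both strands and are given without a test. With regions called from replicate 2 alone, 5 of 21 called X windows held the core, and with replicate 1 alone 3 of 15 did.

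The motif regions also stood high among the uncalled. The 8 uncalled motif regions had signals from 29.3 to 59.5 with a median of 48.1, against a median of 34.1 for all uncalled X regions. The region 2576 bp from F22H10.2 had 59.5 in the joint list, 29.8 in replicate 1 and 29.7 in replicate 2. The region 3951 bp from gtr-1 had 59.4, 24.5 and 44.9, and that 751 bp upstream of nspc-17 had 58.5, 25.4 and 40.6. The lowest, 306 bp upstream of F09F9.2, was the only one of the 13 at a promoter. Of the 13, 11 had an overlapping region in replicate 2, and the regions near F09F9.2 and got-2.2 had none. Over all 13 motif regions the median rank on X was 39, against 769.5 for the 1516 without the core.

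By rank the share of windows with the core was highest at the top of the list and lowest at its end. It was 5 of 17 for ranks 1 to 17, 3 of 33 for ranks 18 to 50 and 2 of 100 for ranks 51 to 150. It was 1 of 350 for ranks 151 to 500 and 2 of 1029 below. The bins were set after the data were seen. Ranks 1 to 17 are the called regions, so the first bin repeats the called shares and adds no support to them. Promoter shares over the same bins were 47.1%, 24.2%, 20%, 17.4% and 13.5%. The share of regions present in both replicate lists was 100% in the first bin and 28.6% in the last.

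The chromosome as a whole is richer in the core. X holds 81 occurrences, or 4.57 per Mb, and the autosomes 233, or 2.82 per Mb. Of the X occurrences 22 (27.2%) fell in a region of the joint list, small RNA neighbourhoods included, whereas those regions cover 4.28% of X. Of the autosomal occurrences 23 (9.87%) fell in regions that cover 5.37% of the autosomes. Called regions held 9 occurrences on X and 3 on the autosomes, all of these on III. With 1 mismatch allowed, 4 of 17 called X windows had at least 2 matches (23.5%), against 10 of 1512 uncalled X windows (0.661%) and 1 of 130 called autosomal windows (0.769%). At least 1 such match, however, was found in 5 of 17 called X windows and in 25 of 130 called autosomal windows (19.2%). The shares of uncalled windows with such a match were 69 of 1512 on X (4.56%) and 329 of 9027 on the autosomes (3.64%).

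The 4 called regions with neither feature differed in sequence. The window near C24H10.4, which RefSeq annotates as a bZIP domain protein, was a tandem repeat with all of its bases soft-masked as repeat. It had 98.5 in the joint list, 56.6 in replicate 1 and 43.7 in replicate 2. The window near F18E9.1, an ELM2 domain gene, was 62.9% masked and repeats short runs of G and A; it had 91.3, 41.7 and 49.9. The region 584 bp upstream of bet-2, a bromodomain gene, had 85.5, 39.6 and 45.9 and lay just beyond the promoter limit. The region 2592 bp upstream of nhr-17, a nuclear hormone receptor gene, had 77.5, 34.8 and 43.2. All 4 were among the 354 highest regions of replicate 2, and 1 was in replicate 1. At least 50% of the window was masked in 2 of 17 called and 331 of 1512 uncalled X windows (21.9%).

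All 17 called regions had an overlapping region in both replicate lists, whereas 677 of the 1529 did and 50 had one in neither. Of the 17, 11 were among the 354 highest of replicate 1, 10 among those of replicate 2, 5 in both and 1 in neither. Over the 677 regions the signals of the replicates had a Spearman correlation of 0.152 and a Pearson correlation of log2 signal of 0.336. Over the 660 uncalled ones these were 0.0906 and 0.111. These correlations are descriptions, since the regions share both libraries and were selected by joint signal.

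**Figure D3:**
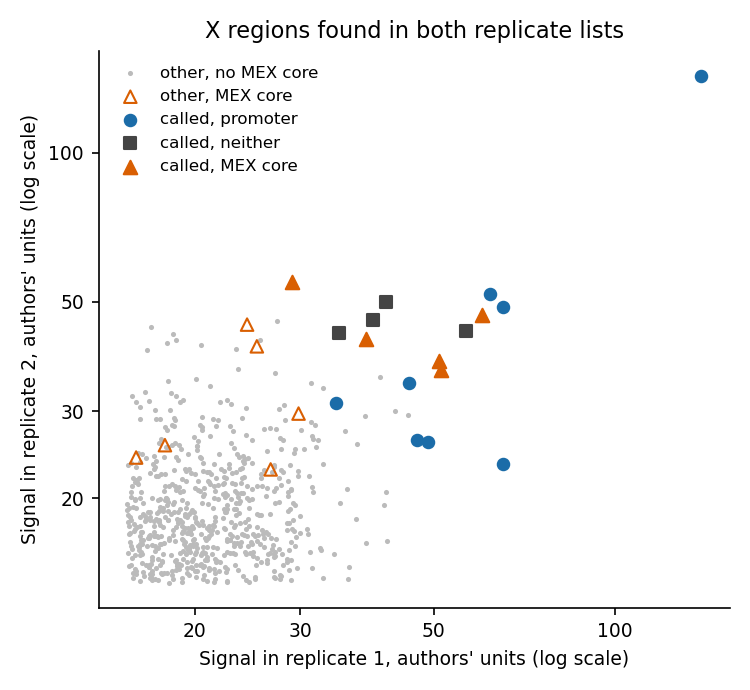
Signal in replicate 1 against signal in replicate 2, both in the authors' units on log scales, for the 677 X regions found in both lists; filled symbols are called regions and triangles hold the MEX core. The T13C5.6 region is high in both, at 139 and 143, the mans-3 promoter lies low in replicate 2 at 23.4, and the W02H3.3 region lies low in replicate 1 at 29.1.

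Called X windows were richer in GC. Their median GC content was 49.7% (range 38.4 to 62.3), against 36.4% for uncalled X windows and 43.0% for called autosomal windows. The odds ratio per 10 percentage points was 3.33 (2.05 to 5.61, adjusted p = 5.55e-06, Firth logistic regression, n = 1529 regions), and with promoter class as a covariate it was 3.13. With GC content as a covariate the promoter odds ratio was 3.6 (1.35 to 9.42). On autosomes the GC odds ratio was 2.32 (1.92 to 2.80), and the ratio of X to autosomes was 1.44 (0.853 to 2.49), an interval that includes 1. Whether GC content alters recovery of fragments in these libraries was not tested.

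**Figure D4:**
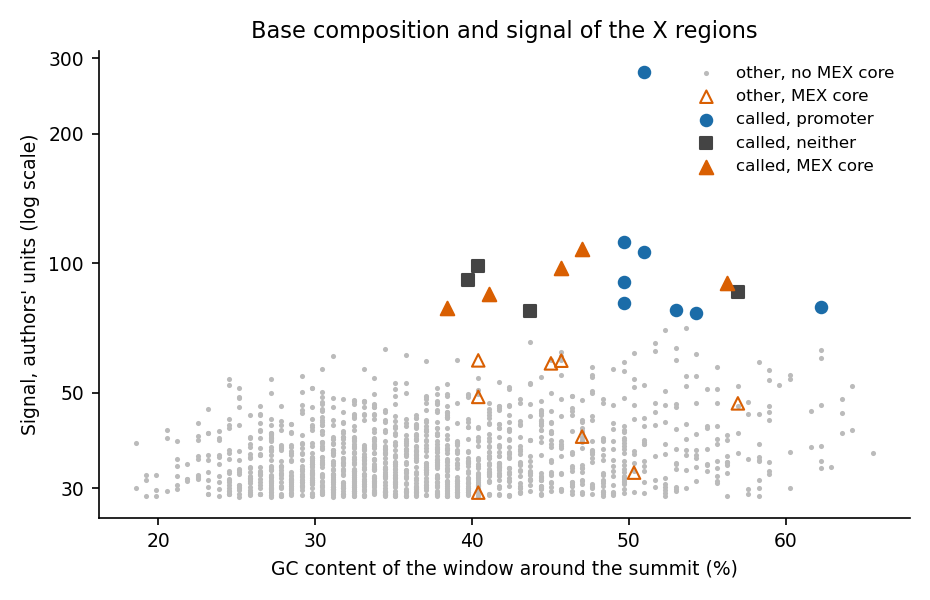
GC content of the 151-base window, in percent, against signal in the authors' units on a log scale for the 1529 X regions. Called promoter regions (circles) lie at 49.7% or above, the highest at 62.3%, while called MEX core regions (filled triangles) range from 38.4% to 56.3%.

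Signal over all X regions was slightly higher at promoters. With GC content as covariate, log2 signal was higher by 0.07 at promoters (SE 0.03, 95% interval 0.0158 to 0.115, adjusted p = 0.0163, least squares with HC3 errors, n = 1529 regions). The difference was 0.06 in replicate 2 alone and 0.07 in replicate 1 alone. Among uncalled regions alone it was 0.03 and did not pass. On autosomes it was 0.16 (0.140 to 0.189).

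In the joint list no word of 6 bases passed for higher signal on X, 0% of 2069 words tested, by least squares with HC3 errors, GC content as covariate and Benjamini-Hochberg adjustment. Without adjustment 41 words passed 0.05. The smallest p was that of CCTGCG, or CGCAGG on the other strand, which lies within the MEX core. Log2 signal was higher by 0.26 (SE 0.08) in its 42 windows, with an adjusted p of 0.0893, and by 0.13 in replicate 1 and 0.20 in replicate 2. AATCGC followed at 0.11, AAAATA at 0.05, GCAGGG at 0.18 and ATTTTA at 0.05. GCGCAG, the third word of the core, had 0.13 and an adjusted p of 0.445.

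The same fit on the X regions of the separate replicate lists passed other words. In replicate 2 alone 2 words passed for higher signal. AGAGAG had a log2 difference of 0.12 there, with an adjusted p of 0.0348, against 0.08 in replicate 1 and 0.08 in the joint list. CGCGCA, which shares its last 5 bases with the start of the MEX core, had 0.18 with an adjusted p of 0.0371, against 0.11 in replicate 1 and 0.14 in the joint list. In replicate 1 alone 0 words passed for higher signal.

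In the joint list lower signal went with 8 words, or 0.387% of those tested, and 131 passed without adjustment. They included CTATGA, with a log2 difference of -0.10 and an adjusted p of 0.0121, GTCTAA at -0.10, AGTCTA at -0.10, CGATGC at -0.14 and CCGGCA at -0.12. All 8 were negative in replicate 1 and 6 in replicate 2, but none of the 8 passed in either replicate alone, and no word passed among uncalled regions alone. Different words passed in the separate lists, 5 in replicate 2, AATCAC and AGCAAT among them, and 2 in replicate 1, GGTACC and TACGGA. Of other motifs counted on both strands, TCACGC, a core of a paired-domain half-site, was in 1 of 17 called X windows and 60 of 1512 uncalled ones (3.97%). It was in 6 of 130 called autosomal windows (4.62%). The E-box CACGTG was in 2 of 17 and 36 of 1512 (2.38%), and GAGAGAGA in 2 of 17 and 26 of 1512 (1.72%). A run of 8 T was in 1 of 17 and 290 of 1512 (19.2%). These are matches of letters, not sites of binding.

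The 17 called regions had 17 different nearest coding genes, out of 1001 X genes nearest to any member within 5 kb. Those 1001 were 36.7% of the 2727 protein-coding genes of X. That is the share against which the list counts of genes nearest to any member are to be read. None of the 17 genes nearest to a called region belonged to the 6 gene lists drawn up for X, but 17 genes are too few to show a lack. In the list of X dose and sex determination genes 3 of 6 (50%) were nearest to a member, and the strongest was fox-1, an X signal element that counts X chromosomes, at 45.2. Among neuronal genes 13 of 20 (65%) were, with unc-2, a calcium channel gene, at 42.8. Among neuropeptide genes 10 of 34 (29.4%) were, with nlp-23 at 49.9. Cuticle genes gave 10 of 32 (31.2%), with the collagen gene col-184 at 46.8, and muscle genes 1 of 9 (11.1%), with mup-2, a troponin T gene, at 51.2. Patterning genes gave 6 of 15 (40%), with lin-14, a regulator of developmental timing, at 50.4 and its summit 11 bp upstream. All of these signals were below the lowest called value on X, 76.8.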

How the data were processed

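Each of 2 replicates of NPAX-4-eGFP late embryos was assayed by chromatin immunoprecipitation and sequencing with an antibody to GFP. The authors deposited region lists on ce11 for each replicate, for both together and after IDR, and their signal values were used as deposited, within each list. The sources used here do not give the aligner, the peak caller or the IDR threshold, and input libraries were not analysed here. ce11 is the WBcel235 assembly, so RefSeq sequence and Ensembl release 115 genes were used without converting coordinates.

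Overlapping regions were reduced to the strongest. A region was called when it overlapped the IDR list by at least 1 bp. Shares carry exact Clopper-Pearson intervals, and a share of 0 also the limit of 3 counts. Calls were fitted by Firth logistic regression (two-sided penalised likelihood ratio, Benjamini-Hochberg over 5 results) and log2 signal by least squares with HC3 errors, with words present in at least 20 windows. Scripts were tested on simulated data. With 1 replicate, its 354 highest regions were taken as called.

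Regions named are all called X regions and the 5 highest uncalled ones, with their nearest and containing genes, and the 5 words of smallest p in each direction. The nearest coding gene of the T26C11.3 region has no symbol in the sources used here and was left unnamed. Uncalled MEX core regions, the strongest gene of each list and the words passing in 1 replicate were added after their values were seen. Members, lists and tests were chosen with earlier results of these data known. Alternatives chosen after seeing the data were the RefSeq tRNA pseudogene filter, removal of MEX core windows, GGTTCNA, the single mismatch, the rank bins and the tRNA comparison. The scripts ran in Python 3.11.15 with matplotlib 3.10.9, scipy 1.17.1, pandas 2.3.3 and numpy 2.4.6.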

Additional observations from a re-analysis of the deposited data

Results flagged for a closer look

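The effect of promoter position on being called differed between X and the autosomes by an interaction term: the odds ratio on X was 0.339 of that on autosomes (0.120 to 0.941, adjusted p = 0.0475, Firth logistic regression, n = 10686 regions). Without windows that hold the MEX core it was 0.714, with replicate 1 alone it was 1.03 and with replicate 2 alone 0.122. It no longer passed at 250 bp (0.352) or 1000 bp (0.343) from small RNA genes.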

How the results depend on the processing

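With 17 called regions, single settings moved several results. Taking the higher-signal part of the IDR list, as ranked by signal, left 1 called region on X: the X odds ratio was then 0.164 and passed the threshold, while the promoter (16.5) and GC (3.39) odds ratios no longer did. The X against autosome promoter ratio did not pass at 250 bp (0.352) or 1000 bp (0.343) from small RNA genes or without MEX core windows (0.714). Signal at promoters among uncalled regions alone was 0.0336, and no word then had lower signal (0). With each replicate left out, odds ratios ranged from 0.563 to 0.815 for X and from 1.62 to 10.1 for promoters. The X against autosome promoter ratio then ranged from 0.122 to 1.03. The value of 1.03, without replicate 2, had an interval of 0.361 to 3.11 and showed no difference in either direction. In the separate replicate lists, words with lower signal ranged from 2 to 5, and words with higher signal from 0 to 2. None of the former were among the 8 of the joint list. The causes were not tested. The GC odds ratio kept its direction and passed under 9 of 10 alternatives. No paired analysis was possible because there is a single group. Depth is unknown.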
